A study of Mus musculus with 6 samples.

Results

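The 122 genes described here stood clearly higher in both knockdowns of a neuronal culture experiment, out of 23235 genes listed. They were chosen by their expression values. The rule required a successful test in both of the authors' deposited tables and at least 1 FPKM in control, where FPKM is fragments scaled to transcript length and to mapped fragments. It also required a log2 ratio of knockdown to control above 1.2 for HDAC2 and above 0.8 for Sp3. Of the 13357 genes tested in both comparisons, 12989 reached 1 FPKM in control. Among those, 725 passed the HDAC2 threshold, 383 passed that for Sp3 and 131 passed both. Symbols beginning with Gab, Scn, Kcn, Cdh, Pcdh, Col or Zfp, and B2m, were left out, which removed 9 genes (B2m, Cdhr1, Gabbr2, Gabrb2, Kcnip4, Pcdh10, Pcdh11x, Scn3b and Zfp180). Since both comparisons chose the members, and both have the same control values as denominator, the members' ratios are a description and no test is attached to them.

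The libraries came from mouse cortical and hippocampal neurons taken from embryos at day 15 and kept for 17 days, with 2 libraries per group. Cells received cytosine arabinoside, which kills dividing cells, at 1 uM on day 5, and short hairpin RNA in a lentivirus on day 12. One group had its Hdac2 message targeted, another its Sp3 message, and the third is named control only. The labels name neither the hairpins nor the mouse strain. Nothing in the labels ties the libraries of a group to separate cultures, so the authors' p-values may measure technical spread only. The tables give 1 FPKM value per group, so no value per library, no standard deviation and no depth can be shown. Errors below are standard errors (SE) of the log2 ratio, recovered from the authors' test statistic.

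HDAC2 is a class I histone deacetylase that works inside the Sin3, NuRD and CoREST corepressor complexes and removes acetyl groups from histones, which generally lowers transcription. Sp3 is a zinc finger protein that binds GC-rich promoter boxes and can act as an activator or as a repressor, depending on the promoter. The series asks whether the proteins regulate a shared set of genes in neurons. Hdac2 measured 49.4 FPKM in control, 12.3 in HDAC2 knockdown and 38.8 in Sp3 knockdown, and Sp3 measured 15.5, 26.7 and 5.82 FPKM in the same order. Each target was thus lowest in the group named for it. The median gene of the HDAC2 comparison was shifted by 0.32 on the log2 scale, and that of the Sp3 comparison by -0.13. Ratios below are therefore given relative to the median gene (centred), on which scale the thresholds lie at 0.88 for HDAC2 and 0.93 for Sp3.

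GC boxes are the known binding sites of Sp proteins, so the promoters of the members with the largest ratios in both knockdowns are shown. They belong to the 5 genes, among the 15 members whose smaller ratio was largest, that matched the RefSeq promoter table (build GRCm38.p6). Each run covers the 250 bases before the annotated start, 5′ to 3′ on the gene's strand. Capitals mark the core GGGCGG or its reverse complement CCGCCC, and matches that share a base are counted separately. The positions are chr13:54949161-54949410 for Unc5a on the plus strand, chr7:4753095-4753344 for Cox6b2, chr10:32889916-32890165 for Nkain2, chr7:56019601-56019850 for Nipa1 and chr1:72874866-72875115 for Igfbp5, the last 4 on the minus strand.
Unc5a: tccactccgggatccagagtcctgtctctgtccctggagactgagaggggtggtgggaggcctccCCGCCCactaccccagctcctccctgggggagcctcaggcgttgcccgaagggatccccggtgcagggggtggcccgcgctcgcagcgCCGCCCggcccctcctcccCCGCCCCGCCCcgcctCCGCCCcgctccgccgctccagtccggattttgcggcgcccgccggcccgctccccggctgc
Cox6b2: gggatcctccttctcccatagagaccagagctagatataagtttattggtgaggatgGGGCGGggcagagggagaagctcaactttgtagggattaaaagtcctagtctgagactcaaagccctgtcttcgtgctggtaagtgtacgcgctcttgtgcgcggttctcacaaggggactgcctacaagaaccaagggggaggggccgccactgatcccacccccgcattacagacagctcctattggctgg
Nkain2: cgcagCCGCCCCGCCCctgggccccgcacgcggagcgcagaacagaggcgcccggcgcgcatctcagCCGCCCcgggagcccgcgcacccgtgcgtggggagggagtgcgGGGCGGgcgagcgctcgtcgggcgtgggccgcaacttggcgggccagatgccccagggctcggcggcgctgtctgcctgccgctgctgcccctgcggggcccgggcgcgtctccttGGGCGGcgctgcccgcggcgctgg
Nipa1: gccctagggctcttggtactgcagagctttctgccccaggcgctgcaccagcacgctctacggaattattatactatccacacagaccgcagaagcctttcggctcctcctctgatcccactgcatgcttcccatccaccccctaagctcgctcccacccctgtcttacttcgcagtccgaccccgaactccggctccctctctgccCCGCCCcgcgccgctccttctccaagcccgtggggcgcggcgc
Igfbp5: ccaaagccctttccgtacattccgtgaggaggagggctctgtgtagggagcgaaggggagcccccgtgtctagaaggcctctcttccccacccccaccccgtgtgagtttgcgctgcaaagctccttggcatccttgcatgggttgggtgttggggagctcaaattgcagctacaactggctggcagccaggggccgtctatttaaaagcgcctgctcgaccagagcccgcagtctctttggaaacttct

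The Unc5a and Nkain2 promoters held 5 core matches each, with a GC content of 76.8% and 81.6%. Cox6b2 held 1 match at 54.8% GC, Nipa1 held 1 at 64% GC, and Igfbp5 held 0 at 58.8% GC. Promoters with several matches and one with none thus stand together among the members with the largest ratios. Of all 32851 promoters in the table, 32.7% held the core in this window, and their median GC content was 52.4%. That set is not matched to the members by status or control level, so nothing is read from the difference. A share over the members is void, because 79 of 122 members (64.8%) had an entry. A match is a string of letters and not a measured binding site.

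Of the 122 members, 111 were called higher (q under 0.05) in HDAC2 knockdown by the authors' deposited table, where 24.6% of all tested genes were called higher. In Sp3 knockdown the authors' deposited table called 108 of them higher, against 13.2% of all tested genes. Both tables called 108 members, where 6.43% of genes tested in both were called in both. With each statistic recomputed against the median gene, 102 members were called in HDAC2 knockdown, 108 in Sp3 knockdown and 99 in both, against 10.2%, 20.2% and 3.95% of all genes. The rule used these same ratios, so nothing is read from the difference between members and background.

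The members were mostly modestly expressed genes. Their median was 4.66 FPKM in control (range 1.04 to 86.9), 15.99 in HDAC2 knockdown and 10.5 in Sp3 knockdown, while the median control level of all 12939 genes with ratios in both comparisons was 10.5 FPKM. The control value is the denominator of both ratios and has a minimum in the rule, so nothing is read from this difference. In control, 41 members lay under 3 FPKM and 31 at 10 FPKM or more. The centred log2 ratio had a median of 1.25 (range 0.89 to 3.63) in HDAC2 knockdown and 1.22 (range 0.94 to 2.61) in Sp3 knockdown. The median gene of the background stood at -0.01 in both. The members' median SE was 0.29 in the HDAC2 comparison and 0.16 in that of Sp3, so the HDAC2 ratios are the less precise.

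**Figure D1:**
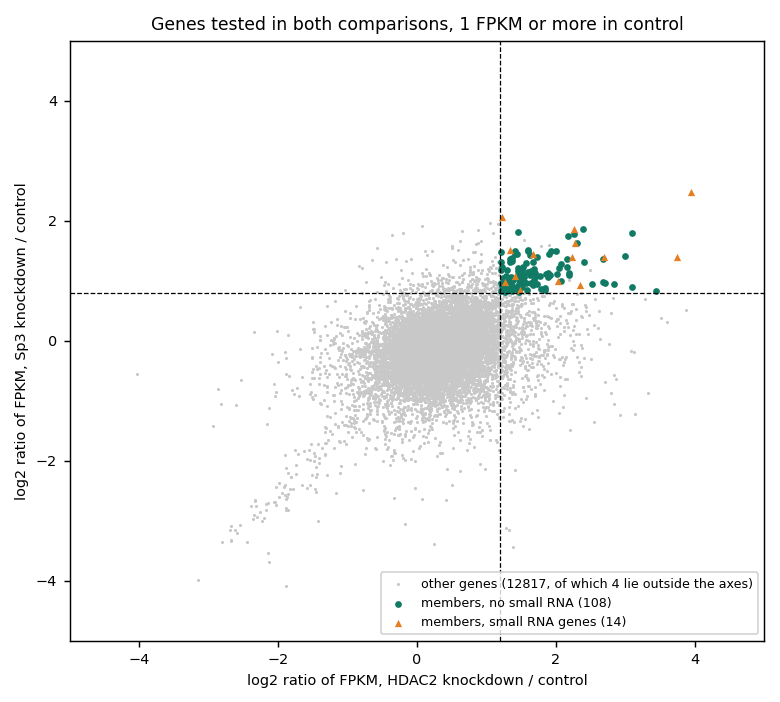
Log2 ratio of FPKM to control for each gene tested in both comparisons with at least 1 FPKM in control, with HDAC2 knockdown on the horizontal and Sp3 knockdown on the vertical axis. Grey points are other genes, green circles are the 108 members that are not small RNA genes, orange triangles are the 14 small RNA genes, and dashed lines mark the thresholds of 1.2 and 0.8, which place every member at the upper right.

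The thresholds cut through a continuous range of values. Just inside the HDAC2 threshold lay Dgkb, Hmgcll1 and Lpl at uncentred log2 ratios of 1.202, 1.203 and 1.205, and just outside lay Lsp1 at 1.197, Htr7 at 1.18 and Amph at 1.18. Just inside the Sp3 threshold lay Erap1 and Slc18a2 at 0.81 and Cpm at 0.82, and just outside lay Mir468 at 0.799, Scarna6 at 0.796 and Fbln2 at 0.79. Members and excluded genes at these edges differ by less than the SE of a typical member.

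The members were sorted by known function into 13 roles after their names and values had been seen. Outside the small RNA genes, both of the authors' deposited tables called 107 of 108 members higher. Of all genes tested in both, 6.43% were called higher in both. The ratios in the rule all but fix the counts called by role below, so nothing about a role is read from them. Among the 11 genes of synaptic vesicles and transmitter handling, all 11 were called higher in both of the authors' deposited tables, and 9 stayed called in HDAC2 knockdown relative to the median gene. Their control levels ran from 1.42 to 63.2 FPKM. The median centred log2 ratio was 1.15 in HDAC2 knockdown and 1.22 in Sp3 knockdown.

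Syt17 belongs to the synaptotagmins, a family of vesicle trafficking proteins (chromosome 7, 125525370 to 125587066 in mm9). It measured 3.49 FPKM in control, 15.8 in HDAC2 knockdown and 11.7 in Sp3 knockdown. Its centred log2 ratios were 1.86 ± 0.29 and 1.88 ± 0.21 (SE), the highest HDAC2 value of the group and nearly equal in both knockdowns. Synpr encodes synaptoporin, a synaptic vesicle membrane protein, and measured 7.61, 20.8 and 26.6 FPKM in the same order. Its centred ratio was 1.14 ± 0.19 in HDAC2 and 1.94 ± 0.12 in Sp3 knockdown, and Sp3 knockdown gave the higher level. Syngr3 encodes synaptogyrin, another vesicle protein, and measured 63.2, 146 and 112 FPKM. Its centred ratio in HDAC2 knockdown (0.90 ± 0.35) did not pass the test relative to the median gene, and that in Sp3 knockdown was 0.96 ± 0.11.

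Transmitter enzymes, transporters and receptors were also present. Slc18a2, the vesicular monoamine transporter, measured 1.63, 4.53 and 2.87 FPKM in control, HDAC2 and Sp3 knockdown. Abat, the transaminase that breaks down GABA, measured 16.8, 57.1 and 35.3 FPKM. Chrna4, a nicotinic acetylcholine receptor subunit, measured 6.91, 19.06 and 14.3 FPKM, and Lypd6, a surface protein related to modulators of that receptor family, measured 1.42, 4.06 and 3.33. All 4 were called higher in both of the authors' deposited tables, from control levels that ran from 1.42 to 16.8 FPKM.

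The remaining synaptic members included signalling enzymes and a receptor-like protein. Gucy1b3, the beta subunit of the nitric oxide receptor guanylate cyclase, measured 26.2 FPKM in control and 67.7 in each knockdown. Dgkb, a diacylglycerol kinase, measured 9.19, 21.2 and 17.96 FPKM, and Panx2, a pannexin channel protein, 4.22, 11.9 and 8.997. Nptxr, the neuronal pentraxin receptor, measured 48.4, 123 and 120 FPKM. Nptxr was called in the authors' deposited table for HDAC2 (q = 0.0465) and was not called relative to the median gene, where its ratio was 1.03 ± 0.55. Its locus overlaps Npcd and Cbx6, whose centred ratios were 0.53 ± 0.49 and -1.07 ± 0.43 in HDAC2 knockdown and 1.75 ± 0.17 and 0.46 ± 0.28 in Sp3 knockdown, beside 1.44 ± 0.17 for Nptxr itself in Sp3 knockdown, so how fragments were divided among the 3 genes is uncertain.

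**Figure D2:**
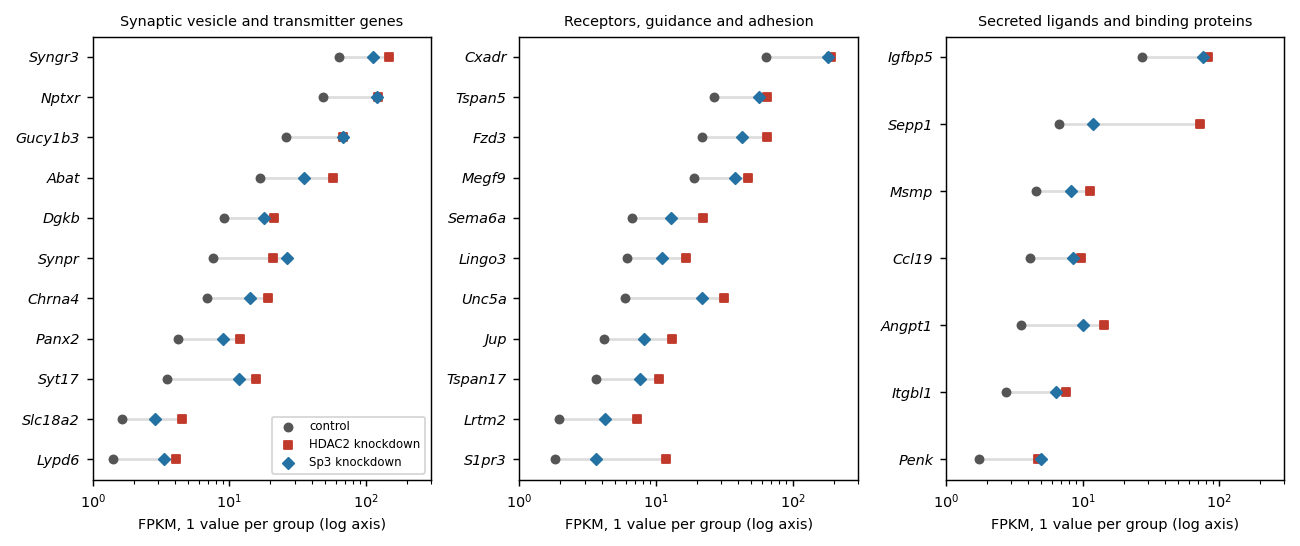
FPKM per group on a log axis for the members in 3 roles: synaptic genes, receptors and guidance genes, and secreted ligands and binding proteins. Grey circles are control, red squares HDAC2 knockdown and blue diamonds Sp3 knockdown, with 1 authors' value per group and no error bar. Control is the lowest point in each line, and Sepp1 shows the widest gap between the knockdowns, 72.4 against 11.9 FPKM.

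Among 11 receptors, guidance and adhesion genes, all 11 were called higher in both of the authors' deposited tables, and 9 stayed called in HDAC2 knockdown relative to the median gene. The netrin receptor gene Unc5a (chromosome 13, 55050793 to 55122746 in mm9), whose GC-rich promoter is printed above, measured 5.96 FPKM in control, 31.3 in HDAC2 knockdown and 21.6 in Sp3 knockdown. Its centred ratios were 2.08 ± 0.28 and 1.99 ± 0.11, and apart from Snord68 it had the largest smaller ratio of all members. Unc5a lies 153 kb from Tspan17, a tetraspanin gene and the nearest member, which measured 3.65, 10.6 and 7.61 FPKM. No other gene tested in both comparisons with at least 1 FPKM in control lies wholly between them.

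Guidance and Wnt receptors other than Unc5a had smaller ratios. Sema6a, a transmembrane semaphorin, measured 6.66, 22.0 and 12.8 FPKM in control, HDAC2 and Sp3 knockdown. Fzd3, a Frizzled receptor of the Wnt pathway, measured 21.7, 64.4 and 42.3 FPKM, and its HDAC2 ratio (1.25 ± 0.57) did not pass relative to the median gene. S1pr3, a receptor for sphingosine phosphate, measured 1.84, 11.8 and 3.63 FPKM. Its centred ratio was 2.36 ± 0.26 in HDAC2 against 1.11 ± 0.19 in Sp3 knockdown, so it was among the members with a clearly unequal pair of values.

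Adhesion members ranged widely in level. Cxadr, the junctional protein known as the coxsackievirus and adenovirus receptor, had the highest control level outside the small RNA genes, with 63.9, 193 and 182 FPKM. Its centred ratios were 1.27 ± 0.62, which did not pass relative to the median gene, and 1.64 ± 0.18. Jup, the junction protein plakoglobin, measured 4.18, 13.1 and 8.14 FPKM. Tspan5, a tetraspanin, measured 26.7, 64.6 and 56.5, Megf9, a membrane protein with EGF-like repeats, 18.9, 47.0 and 38.0, and the leucine-rich repeat gene Lrtm2 1.95, 7.20 and 4.25. Lingo3, of the Lingo leucine-rich repeat family, measured 6.10, 16.5 and 11.1 FPKM. For each of these genes the Sp3 knockdown FPKM lay between control and HDAC2 knockdown, as it did for 112 of all 122 members. Relative to the median gene, Sp3 knockdown had the larger ratio for Cxadr, Tspan5 (1.22 against 0.96) and Megf9 (1.14 against 1.00). HDAC2 knockdown had the larger ratio for Jup, Lrtm2 and Lingo3.

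All 7 secreted ligands and binding proteins were called higher in both of the authors' deposited tables and also relative to the median gene. Angpt1, an angiopoietin ligand of the Tie receptor (chromosome 15, 42256271 to 42508341 in mm9), measured 3.55 FPKM in control, 14.3 in HDAC2 knockdown and 10.02 in Sp3 knockdown, with centred ratios of 1.69 ± 0.25 and 1.63 ± 0.15. Igfbp5, a binding protein of insulin-like growth factors, measured 27.3, 82.1 and 76.6 FPKM, with centred ratios of 1.28 ± 0.44 and 1.62 ± 0.13. Penk, the precursor of enkephalin opioid peptides, measured 1.76, 4.68 and 4.94 FPKM, with centred ratios of 1.09 ± 0.39 and 1.62 ± 0.31. All 3 stood above control in both knockdowns, and only Penk of the 3 measured more FPKM in Sp3 than in HDAC2 knockdown.

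Sepp1, which encodes the selenium carrier selenoprotein P, was the most unequal member. It measured 6.66 FPKM in control, 72.4 in HDAC2 knockdown and 11.9 in Sp3 knockdown, a centred ratio of 3.13 ± 0.16 against 0.97 ± 0.15. The difference between these log2 ratios was 2.16. The chemokine gene Ccl19 measured 4.16, 9.81 and 8.56 FPKM, Itgbl1, an integrin beta-like protein, 2.73, 7.51 and 6.33, and Msmp 4.55, 11.4 and 8.27.

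Secreted and surface enzymes numbered 7, and all 7 were called in both of the authors' deposited tables. Lpl, lipoprotein lipase, measured 6.02 FPKM in control, 13.9 in HDAC2 knockdown and 16.7 in Sp3 knockdown, with centred ratios of 0.89 ± 0.24 and 1.61 ± 0.12. Prss35, a member of the serine protease family, showed the opposite order with 3.95, 22.7 and 7.64 FPKM and ratios of 2.21 ± 0.26 and 1.08 ± 0.18. The metalloproteinase genes Mmp24 (16.5, 40.6 and 37.3 FPKM) and Adamts17 (2.34, 7.54 and 4.71 FPKM) had ratios between these. Ndst4, a heparan sulfate modifying enzyme, and the carboxypeptidases Cpm and Pgcp all measured under 2 FPKM in control and between 2.66 and 4.45 FPKM in the knockdowns.

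Among the 11 genes of the cytoskeleton, trafficking and small GTPases, all 11 were called in both of the authors' deposited tables and 9 in HDAC2 knockdown relative to the median gene. Agap1, a GTPase activating protein for Arf proteins (chromosome 1, 91351386 to 91791857 in mm9), measured 17.4, 65.1 and 47.3 FPKM in control, HDAC2 and Sp3 knockdown. Its centred ratios, 1.59 ± 0.21 and 1.58 ± 0.079, differed by 0.01. Kif21b, a kinesin motor gene, measured 22.9, 102 and 53.3 FPKM, with the largest HDAC2 error outside the small RNA genes (1.85 ± 0.67). Gas7 measured 30.8, 85.2 and 64.5 FPKM, and neither Gas7 (1.15 ± 0.44) nor the profilin gene Pfn4 (0.90 ± 0.41) passed in HDAC2 knockdown relative to the median gene.

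Actin regulators were a part of this role. Daam2, a formin, measured 1.36, 6.22 and 2.92 FPKM, Rhou, a small GTPase, 2.29, 9.57 and 5.55, and Wasf3, a WAVE protein that promotes actin branching, 7.01, 21.8 and 15.7. Diras2, a Ras family GTPase, measured 19.0, 48.0 and 48.4 FPKM, and Reps2, an endocytosis protein, 4.95, 12.7 and 12.5. Relative to the median gene, Daam2 and Rhou had the larger ratio in HDAC2 knockdown and Diras2 and Reps2 in Sp3 knockdown. Rassf5 and the microtubule protein gene Eml1 completed the role, at 1.98 and 8.38 FPKM in control.

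The 10 membrane transport and organelle genes had the highest median HDAC2 ratio of the roles apart from the small RNA genes, 1.605 against 1.297 for Sp3, and all 10 passed in both comparisons with and without centring. Nkain2, which encodes a protein that interacts with the sodium pump (chromosome 10, 31409125 to 32609721 in mm9), measured 9.49 FPKM in control, 45.4 in HDAC2 knockdown and 32.5 in Sp3 knockdown. Its centred ratios were 1.94 ± 0.27 and 1.91 ± 0.11. Tmbim6, the endoplasmic reticulum protein BAX inhibitor, reached 248 FPKM in HDAC2 and 142 in Sp3 knockdown from 55.6 in control, with ratios of 1.84 ± 0.30 and 1.49 ± 0.057. Tmbim6 was thus the most abundant member in HDAC2 knockdown. Nipa1, a magnesium transporter gene, measured 16.5, 62.7 and 46.5 FPKM with ratios of 1.61 ± 0.26 and 1.63 ± 0.10. Its deposited locus is also that of the clone A230056P14Rik (2.01, 9.93 and 6.18 FPKM), so these members may share fragments and are uncertain as separate genes. Tmco1, an endoplasmic reticulum calcium channel gene, measured 2.12, 11.2 and 5.23 FPKM, and Spg21, the maspardin gene, measured 4.64, 19.5 and 9.23. The GDP-fucose transporter gene Slc35c1, the sodium/proton exchanger gene Slc9a9, Tmem87b, Xk and Xkr7 were the other members of this role, with HDAC2 ratios from 1.17 to 1.599.

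Metabolic and mitochondrial genes numbered 11, of which 9 passed in HDAC2 knockdown relative to the median gene. Cox6b2, a testis-type subunit of cytochrome c oxidase (chromosome 7, 4703396 to 4704696 in mm9), measured 2.10, 17.9 and 7.27 FPKM, with centred ratios of 2.77 ± 0.48 and 1.92 ± 0.50. Cyb5r3, a cytochrome b5 reductase, measured 5.97, 39.1 and 11.6 FPKM, with ratios of 2.39 ± 0.27 and 1.09 ± 0.11. Both genes had HDAC2 ratios above 2, as did Aspdh (2.36 ± 0.48), and the Cyb5r3 ratios differed by 1.301. Bdh1, which interconverts ketone bodies, measured 7.18, 22.1 and 19.2 FPKM, and Prkaa2, a catalytic subunit of the energy sensor AMP-activated kinase, 5.06, 12.9 and 10.6. Hmgcll1, a lyase related to that of ketone body synthesis, measured 1.08, 2.48 and 2.66 FPKM and stood higher in Sp3 knockdown. Hmgcll1 and the glutathione transferase gene Gstt1 were the members of this role that did not pass in HDAC2 knockdown relative to the median gene. Iscu, the iron-sulfur cluster scaffold, Ppp1r3c, a glycogen-targeting phosphatase subunit, Mrps9, Mtfp1 and Aspdh made up the rest, with Sp3 ratios from 1.03 to 1.502.

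All 9 genes of protein modification and turnover were called in both of the authors' deposited tables. Ppic, a cyclophilin prolyl isomerase, measured 3.97, 33.9 and 7.39 FPKM, and its centred ratio of 2.78 ± 0.29 in HDAC2 knockdown stood 1.75 above that in Sp3 knockdown (1.03 ± 0.23). Rnft2, a RING finger gene, measured 14.7 FPKM in control and 39.8 and 40.0 in the knockdowns, with ratios of 1.12 ± 0.12 and 1.57 ± 0.066. Zdhhc3, a palmitoyltransferase gene, measured 6.85, 20.2 and 16.7 FPKM. The other 6 (Csnk1g2, Dtx4, Josd1, Maneal, Ppp2cb and Zfand2a) include a casein kinase, a deubiquitinase and a phosphatase catalytic subunit.

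The transcription and cyclin role held 8 genes, and all 8 were called with and without centring. Ski, a corepressor of TGF-beta signalling, measured 9.22, 33.1 and 16.6 FPKM, with ratios of 1.53 ± 0.32 and 0.98 ± 0.098. Runx1t1, a corepressor of the ETO family, measured 4.17, 11.8 and 9.39 FPKM, and its ratios, 1.19 ± 0.10 and 1.303 ± 0.087, were among the most precise. Foxj1, the regulator of motile cilia, measured 1.35, 5.44 and 2.90 FPKM, and Ccny, cyclin Y, 15.4, 63.9 and 35.6. Eya3, the Mediator subunit gene Med11 and Ccnjl were also in this role.

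Interferon and stress response genes numbered 5. Ifitm2, an interferon-induced membrane protein gene (chromosome 7, 148140738 to 148141860 in mm9), measured 1.57, 12.5 and 4.17 FPKM, with ratios of 2.67 ± 0.50 and 1.54 ± 0.50. Ifi27l1 measured 1.74, 4.74 and 3.87 FPKM, Erap1, which trims peptides for antigen presentation, 2.86, 6.85 and 5.01, and Cmpk2, a mitochondrial nucleotide kinase, 3.85, 9.47 and 7.27. The immediate early gene Ier3 measured 4.32, 10.05 and 10.2. Ifitm2 stood apart in this role, since the 4 other genes had HDAC2 ratios from 0.90 to 1.13. Of the 9 members with other or unclear functions, S100a13, a small calcium-binding protein gene, measured 1.66, 11.8 and 3.19 FPKM and was the exception outside the small RNA genes to the call in Sp3 knockdown (q = 0.11 in the authors' deposited table). Fam81a measured 31.4, 78.7 and 58.7 FPKM, and the remaining 7 were Bean1, Fam189a1, Lhfp, Samd12, Sprn, Tctn2 and Ypel1. A last 9 members carry clone names, among them Gm14440, whose locus spans a cluster of related genes and is uncertain.

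**Figure D3:**
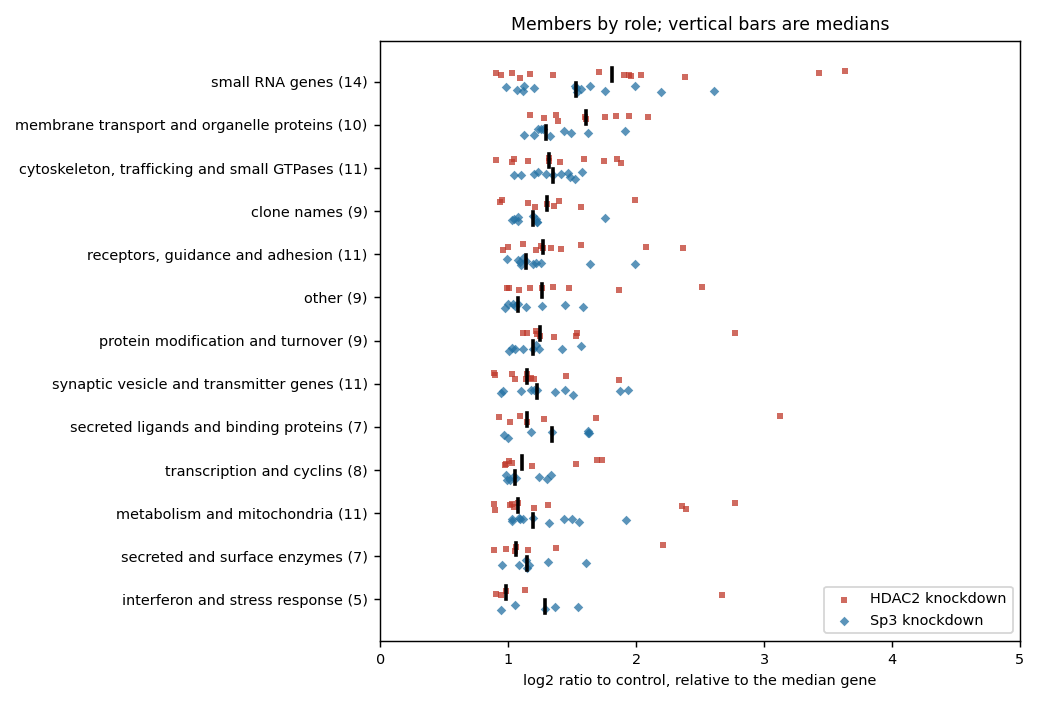
Centred log2 ratio to control of each of the 122 members, grouped by role with the number of genes in parentheses. Red squares are HDAC2 knockdown, blue diamonds are Sp3 knockdown and vertical bars are medians, which run from 0.98 to 1.81 for HDAC2 and from 1.05 to 1.53 for Sp3, with the highest HDAC2 median in the small RNA genes.

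The thresholds lie close together after centring (0.88 and 0.93), so the rule itself draws the members' ratios in the knockdowns toward each other. In FPKM, HDAC2 knockdown stood above Sp3 knockdown for 112 members and below it for 10. After centring the split was 66 to 56 (54.1% with the higher ratio in HDAC2 knockdown, against 48.8% of the background), and 68 members (55.7%, against 38.4% of the background) had ratios within 0.25 of each other. The median difference between the centred ratios, HDAC2 minus Sp3, was 0.02. The largest differences toward HDAC2 knockdown were those of Sepp1 (2.16), Snord42b (1.90), Ppic (1.75), S100a13 (1.44) and Cyb5r3 (1.301). The largest toward Sp3 knockdown were those of Mir343 (-1.29), Synpr (-0.80), Lpl (-0.72), Snord4a (-0.61) and Hmgcll1 (-0.55). Since the ratios share the control value and were cut by the rule, these differences were not tested.

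The 14 small RNA genes, which encode small nucleolar RNAs, a Cajal body RNA and microRNAs, held the 2 largest ratios in each knockdown and were measured with little precision. Their median SE was 2.29 for HDAC2 and 2.24 for Sp3, against 0.26 and 0.14 in the background. The authors' deposited tables called 3 of the 14 higher in HDAC2 knockdown (Scarna17, Snora28 and Snora3) and 1 in Sp3 knockdown (Scarna17). By comparison, the 108 other members were all called in HDAC2 knockdown, and 107 were called in Sp3 knockdown. The libraries were made with a general RNA kit that does not select small RNA, so these values cannot be taken as levels of the mature RNAs.

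Snord68, whose product guides ribosomal RNA methylation, had the largest ratios of all members and was called in neither table. It measured 5.74 FPKM in control, 88.8 in HDAC2 knockdown and 32.0 in Sp3 knockdown, with centred ratios of 3.63 ± 3.64 and 2.61 ± 3.64. Its locus overlaps the ribosomal protein gene Rpl13, which had ratios of 0.43 ± 0.42 and -0.07 ± 0.18. Snord42b (2.65, 35.6 and 7.005 FPKM) and Snord4a (2.55, 6.46 and 7.24 FPKM) lie in the locus of Rpl23a, whose ratios were 0.13 ± 0.39 and -0.12 ± 0.18. Snora3 measured 10.5, 42.7 and 20.8 FPKM, with ratios of 1.71 ± 0.54 and 1.12 ± 0.55, within the locus of Rpl27a at -0.22 ± 0.35 and -0.38 ± 0.17. Snora28 measured 6.51, 33.2 and 12.5 FPKM within the locus of Eif5, which had ratios of 0.10 ± 0.34 and 0.20 ± 0.13. These overlapping genes had lower ratios than the small RNA genes in both knockdowns while the small RNA genes had SE up to 4.01, and how fragments were divided between them cannot be told from the tables. Scarna17, a guide RNA of Cajal bodies, measured 86.9, 231 and 183 FPKM, the highest control level of all members, with ratios of 1.09 ± 0.41 and 1.205 ± 0.37. Snord91a (2.40, 11.5 and 8.71 FPKM) and the RNAs AF357426 and AF357355, which lie in the locus of the imprinted long RNA Rian, were called in neither table.

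**Figure D4:**
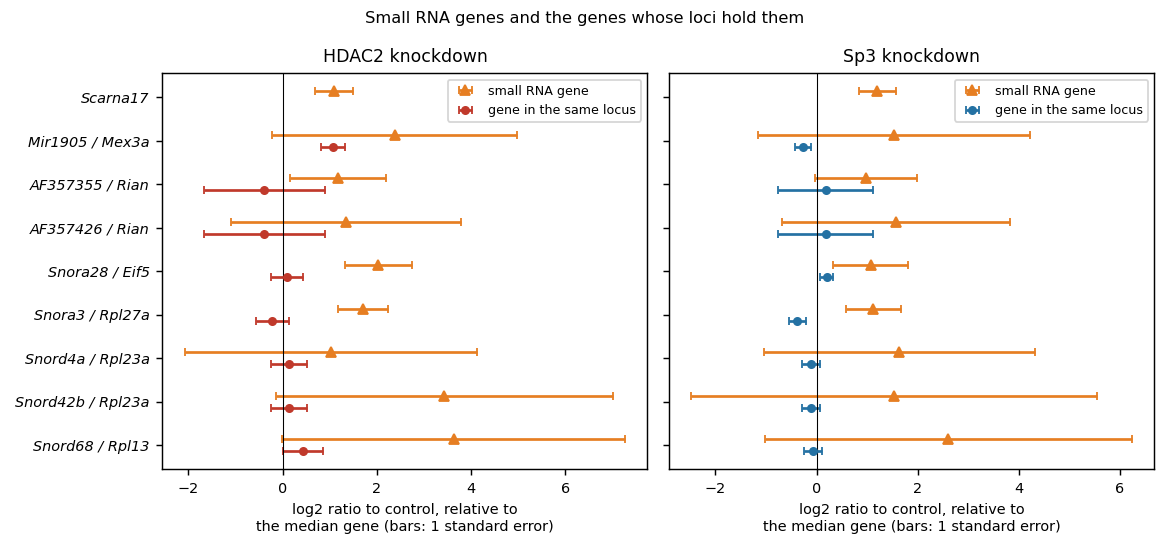
Centred log2 ratio to control, with bars of 1 standard error, for 9 of the small RNA genes and the gene in the same locus, in HDAC2 knockdown (left) and Sp3 knockdown (right). Triangles are small RNA genes and circles are the overlapping genes, and the bars of Snord68 (3.64 in both panels) dwarf those of Scarna17 (0.41 and 0.37).

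Of 5 microRNA genes among the members (Mir343, Mir679, Mir667, Mir1905 and Mir3096b), 0 were called in the authors' deposited Cuffdiff tables, and 0 had an unadjusted p under 0.05 in either comparison. Mir679 measured 2.40, 11.6 and 7.40 FPKM with ratios of 1.96 ± 2.13 and 1.75 ± 2.22, and Mir343 1.04, 2.43 and 4.37 FPKM. Mir1905 lies in the locus of Mex3a, which had ratios of 1.07 ± 0.25 and -0.26 ± 0.16. The mature sequences of the 4 genes found in RefSeq (GRCm38.p6) are shown to tell whether they share a seed, the stretch from base 2 to base 8 that pairs with targets, in capitals.
mmu-miR-1905: cACCAGUCccaccacgcgguag
mmu-miR-343: uCUCCCUUcaugugcccaga
mmu-miR-679-5p: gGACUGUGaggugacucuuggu
mmu-miR-679-3p: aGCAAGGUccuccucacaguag
mmu-miR-667-5p: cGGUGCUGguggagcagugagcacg
mmu-miR-667-3p: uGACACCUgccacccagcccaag

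The 6 mature sequences have 6 distinct seeds, so no seed family joins them.

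The small RNA genes, some of which share a locus, were left out of the search for neighbours. Among the other members, 4 pairs lay within 500 kb of each other in the genome. They were Tspan17 and Unc5a, Nipa1 and A230056P14Rik, Csnk1g2 and Lingo3, and Josd1 and Nptxr. Between Csnk1g2 and Lingo3 (192 kb apart on chromosome 10) lie 11 background genes, 0 of them members, with a median centred ratio of -0.18 in HDAC2 and -0.08 in Sp3 knockdown. Chromosome 7 held 12 members of 963 background genes (1.25%), chromosome 12 held 10 of 496 (2.02%) and chromosome 15 held 10 of 512 (1.95%), where members made up 0.943% of the background as a whole. The chromosome 12 members include the small RNA genes Mir679, Mir667, AF357426, AF357355 and Snora28. Of these only Snora28 was called, and only in HDAC2 knockdown. The shares by chromosome were not tested. The clone 1700027H10Rik overlaps Pcdh10, a protocadherin gene left out by the rule that measured 43.1, 133 and 82.4 FPKM, and is uncertain as a separate gene. In all, the locus of 30 members overlapped that of another gene.

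The deposited loci of members had a median length of 32.0 kb against 26.2 kb in the background, and 28 members (23.0%) against 16.6% of the background had loci over 100 kb. Without the small RNA genes the members' median was 40.7 kb, while the background median above still includes such genes. For the 105 members (86.1%) matched to a coding transcript of GENCODE M21, the median of the longest transcript was 3440 bases against 3266 in the background, with a GC content of 51.5% against 50.1%. These differences from the background were not tested.

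The 23 lists of pathway genes and cell type markers examined beside the members hold 657 genes of the tables. They include 6 members (4.92%), near the 4.08% of the background that they cover. These were Ifitm2, Penk, Unc5a, Syt17, Dgkb and Fzd3. In the axon guidance list, which holds Unc5a, 9 of 37 tested genes were called higher and 1 lower in HDAC2 knockdown and 17 higher and 3 lower in Sp3 knockdown in the authors' deposited tables. Over all tested genes 24.6% were called higher and 3.60% lower in HDAC2 knockdown, and 13.2% higher and 26.1% lower in Sp3 knockdown. Of genes tested in both, 6.43% were called higher in both. In the presynaptic release list, which holds Syt17, 10 of 37 were called higher and 2 lower in HDAC2, and 13 higher and 4 lower in Sp3 knockdown. Of these presynaptic genes 6 were called higher in both, as were 6 axon guidance genes. The list medians, centred, were 0.03 and 0.45 for axon guidance and 0.01 and 0.30 for presynaptic release in HDAC2 and Sp3 knockdown.

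In the other lists with a member, calls were counted in the same way, to be read beside the same shares of all tested genes. Of 22 neuropeptide and granule genes, with Penk, 1 was called higher and 5 lower in HDAC2 knockdown and 9 higher and 1 lower in Sp3 knockdown, and the 1 called higher in both was Penk. Of 13 interferon and antigen presentation genes, with Ifitm2, 6 were higher and 1 lower in HDAC2 and 3 higher and 3 lower in Sp3 knockdown, with 3 higher in both. Of 35 genes of TGF-beta, BMP and Wnt signalling, with Fzd3, 20 were higher and 2 lower in HDAC2 and 9 higher and 8 lower in Sp3 knockdown, with 4 higher in both. Of 29 cyclic nucleotide and kinase genes, with Dgkb, 6 were higher and 2 lower in HDAC2 and 6 higher and 10 lower in Sp3 knockdown, with 2 higher in both. Of 31 classical targets of the neuronal repressor REST, with Penk, 4 were higher and 2 lower in HDAC2 and 8 higher and 7 lower in Sp3 knockdown, with 1 higher in both. Relative to the median gene, 10.2% of all tested genes were called higher and 7.58% lower in HDAC2 knockdown. In Sp3 knockdown the shares were 20.2% higher and 17.6% lower. Of the 22 neuropeptide and granule genes, 7 were then lower in HDAC2 and 10 higher in Sp3 knockdown.

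None of the 9 remaining pathway lists held a member. In 8 of them, the numbers called higher in both tables were 10 of 32 glutamate receptor genes, 7 of 38 synaptic adhesion genes, 3 of 34 calcium signalling genes, 2 of 28 transmitter and peptide receptors, 2 of 33 matrix genes, 1 of 30 activity-regulated genes, 1 of 34 corepressor genes and 0 of 7 germline genes (0 at an unadjusted p under 0.05). Against the 6.43% of all genes called in both, the counts are given as a description.

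Of the 137 marker genes of 7 cell types, 93 were in the background and 0 were members, where 0.943% of the background were members. Summed marker levels differed between groups. In control, HDAC2 and Sp3 knockdown the summed FPKM was 2041, 5090 and 1848 for 26 astrocyte markers and 248, 507 and 143 for 21 oligodendrocyte lineage markers, of which Opalin was at 0 in control. It was 1035, 1916 and 566 for 18 progenitor and dividing cell markers, and 106, 211 and 99.0 for 20 endothelial, pericyte and fibroblast markers. In FPKM, these 4 sums were highest in HDAC2 and lowest in Sp3 knockdown. The sums are not centred, while the median gene shifted by 0.32 in HDAC2 and by -0.13 in Sp3 knockdown on the log2 scale. The small differences of the astrocyte and endothelial sums between control and Sp3 knockdown are therefore not read as lower levels. A sum is weighted toward abundant genes. The median centred ratios of tested markers in HDAC2 and Sp3 knockdown were 1.22 and -0.12 for astrocytes and 0.86 and -0.64 for the oligodendrocyte lineage. They were 0.07 and -0.65 for progenitor and dividing cells and 0.65 and 0.03 for endothelial cells, pericytes and fibroblasts. The progenitor sum was thus higher in HDAC2 knockdown while its median marker stood near the median gene. Microglial markers summed to 21.1, 27.6 and 11.8 FPKM over 14 genes, and Tmem119, C1qa, C1qc and Tyrobp were at 0 in control. Only 3 of the 14 were tested in both comparisons, with median centred ratios of -0.69 in HDAC2 and -0.89 in Sp3 knockdown. Markers of glutamatergic neurons summed to 473, 559 and 478 FPKM, and those of GABAergic neurons to 384, 380 and 546. Their median centred ratios in HDAC2 and Sp3 knockdown were -0.02 and 0.17 for glutamatergic and 0.14 and 0.61 for GABAergic neurons. Markers called higher in both tables were 3 of 24 tested astrocyte, 1 of 11 endothelial, 2 of 17 glutamatergic and 2 of 15 GABAergic genes. They were 0 of 13 oligodendrocyte, 0 of 3 microglial and 0 of 17 progenitor genes (also 0 in each at an unadjusted p under 0.05). The share of all genes tested in both that were called higher in both was 6.43%. The part of these marker levels in the members' values was not tested. In RNA from whole cultures, a change in the number of cells of a type and a change in RNA per cell cannot be told apart.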

How the data were processed

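RNA sequencing of 6 libraries in 3 groups of 2 was processed by the submitters with tools that include TopHat, Bowtie and Cuffdiff on build mm9, per the submitters' processing notes, which give no versions. Per the file headers, the authors' deposited tables list for every gene its status, an FPKM for each group, a test statistic (a score with no fixed range), the p-value, the q-value and whether it was called. Which annotation and strand setting were used is not given in the sources used here. Depth is unknown. Log2 ratios were computed from the FPKM columns without a pseudocount, and SE is the log2 ratio divided by the sign-reversed statistic. Centred ratios subtract the median over genes with status OK that reach 1 FPKM in control or knockdown. The statistic moved in this way got a normal p with Benjamini-Hochberg adjustment over all tested genes. The calculation was tested on simulated data. Python 3.11.15, pandas 2.3.3, NumPy 2.4.6 and SciPy 1.17.1 were used. The members, lists and roles were chosen with earlier results of these data known. Values in full were planned for the 15 members with the largest smaller ratio, the 10 with the highest control level, the 5 most unequal in each direction, those at the thresholds and those in a list. Other members were added, by role, after their values were seen. Loci are those deposited, in mm9, with starts counted from 1, and promoter and microRNA sequences are from RefSeq on another build, matched by symbol. Alternatives varied scaling, FPKM minimum, pseudocount, thresholds and calls. Some results, among them those of 1 gene list, are not reported here.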

Additional observations from a re-analysis of the deposited data

How the results depend on the processing

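The number of members depended on where the limits lay. It was 122, and 77 with groups scaled to the upper quartile of control, 81 with at least 3 FPKM in control, 62 with both thresholds 0.2 higher and 261 with both 0.2 lower. Of the genes found after centring on the median gene (84) and with a threshold of 1.0 in both comparisons (97), 67 and 78 were among the 122. The median log2 ratio in HDAC2 knockdown was 1.57, and 1.25 when centred and 1.27 with upper quartile scaling. Counts within 1.5 times the one reported were 84 to 151 members, 77 to 108 called in HDAC2 knockdown (111 reported) and 75 to 108 called in Sp3 knockdown (108 reported). Alternatives without small RNA genes and without overlapping loci were chosen after seeing the data and gave 108 and 92 members. No paired analysis was possible because the tables hold 1 value per group, and for the same reason no library could be left out in turn. The share of member promoters with a GC box core, and its alternatives, were not run, since too few members had a promoter entry. Depth is unknown, which limits most the genes near 1 FPKM and the small RNA genes.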
